A study of Homo sapiens with 6 samples.

Results

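The clustered histone genes are the human genes whose symbols begin with HIST1H to HIST4H. Most of them encode the linker histone H1 or the core histones H2A, H2B, H3 and H4. Pseudogenes with such a symbol, such as HIST1H2APS1, were counted with their class. They were taken as every entry of the expression table with a comma-separated symbol of this form, which gave 73 entries of 24000, with 70 distinct symbols. RNA-seq had been made from orthotopic tumors of PC-3, a human prostate cancer cell line that grows without androgen, in nude mice. Of the 6 tumors, 3 came from mice given vehicle and 3 from mice given WCE, an extract of the herb Wedelia chinensis. The labels give 10 weeks of treatment for all 6 and no dose. The study's text describes shorter treatments of PC-3 tumors and does not give the length for those sequenced. All 6 tumors came from the same cell line, which carries a luciferase reporter per the study's methods, so each group is a model of 1 line. The libraries were stranded and made from polyadenylated RNA, and cells of the mouse host could contribute reads that the table does not separate. Levels are given as FPKM, fragments per kilobase of transcript, relative to library size, which allows for gene length. Some histone entries, such as HIST1H2AC, are listed over a shorter stretch than their longest annotated transcript. Levels of different histone genes can therefore be compared only roughly.

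Clustered histone genes are transcribed mainly in S phase, when newly made DNA has to be packed into nucleosomes. Their mRNAs usually end in a stem-loop bound by SLBP and not in a poly(A) tail, so that a library of polyadenylated RNA holds little of this form. Some of these genes also give mRNAs that read past the stem-loop to a polyadenylation signal, and in cells that leave the cell cycle such forms are known to gain in share.

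The stem-loop is shown because it separates the usual end of a histone mRNA from the polyadenylated one. The letters of the histone stem-loop were found in GENCODE 29 transcripts (GRCh38) of 27 of the 70 member symbols, against 95 of 57133 genes in all (0.166%). In 4 forms of it the stem-loop stands in capitals, with the neighboring transcript bases in lower case, 5′ to 3′.
HIST1H2AC: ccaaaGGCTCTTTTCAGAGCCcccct
HIST1H2BD: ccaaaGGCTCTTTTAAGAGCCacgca
HIST1H4H: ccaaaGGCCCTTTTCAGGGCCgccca
HIST2H2BC: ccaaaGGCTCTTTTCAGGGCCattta
The form printed for HIST1H2AC was found in 15 symbols, those of HIST1H2BD and HIST1H4H in 5 each, and that of HIST2H2BC in 2. Of the 27 symbols, 19 had an annotated transcript that ran at least 100 bases past the stem-loop, and in 13 of these the polyadenylation hexamer AATAAA, or its variant ATTAAA, stood in the last 50 bases. For HIST1H2AC the transcripts ran 1114 and 1128 bases past it, and for HIST2H2BE 1729 bases. Many models of the other symbols are short, such as those of HIST1H2BK (381 bases at the longest) and HIST1H1C (642 bases), and a missing match says only that these letters are not in the annotated transcript.

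Many H2A and H2B genes lie head to head and share the DNA between their start sites. The stretch between HIST1H2AC and HIST1H2BC (GRCh38.p14, chr6:26123927-26124171, plus strand) and the 247 bases before HIST1H2BK, which face HIST1H2AH (chr6:27146859-27147105, minus strand), are shown because these pairs hold the highest H2A and H2B entries. They were taken from RefSeq. Capitals mark the TATA box letters TATAAA, the box CCAAT and the octamer ATTTGCAT, searched on both strands.
HIST1H2AC: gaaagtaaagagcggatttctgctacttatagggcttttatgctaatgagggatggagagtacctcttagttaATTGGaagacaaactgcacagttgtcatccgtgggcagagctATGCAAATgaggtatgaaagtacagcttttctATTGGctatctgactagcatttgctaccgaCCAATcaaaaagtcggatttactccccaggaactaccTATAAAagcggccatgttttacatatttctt
HIST1H2BK: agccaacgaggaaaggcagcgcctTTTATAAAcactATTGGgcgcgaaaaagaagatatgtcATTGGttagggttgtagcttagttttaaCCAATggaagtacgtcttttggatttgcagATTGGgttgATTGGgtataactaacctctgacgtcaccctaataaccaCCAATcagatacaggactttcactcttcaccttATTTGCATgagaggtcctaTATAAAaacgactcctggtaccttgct
Each stretch held 1 octamer. RefSeq promoters, from 250 bases before to 50 after the start, were matched for 62 of the 70 symbols. The octamer stood in 14 of 18 H2B and 11 of 15 H2A promoters, in 1 of 11 of H3 and in 0 of 6 of H1 and 0 of 12 of H4, against 2.19% of 27305 promoters in all. CCAAT stood in all 50 matched promoters of H1, H2A, H2B and H3 but in 3 of 12 of H4 (39.7% of all promoters), and TATAAA in 42 of the 62 (14.0% of all). Head-to-head partners lie 239 to 346 bases apart as listed, so 1 octamer between them can be counted for both the H2A and the H2B promoter. These are matches of letters, and they are not shown to be sites.

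Histone mRNAs were seen over a wide range of levels in these polyadenylated libraries. Of the 73 entries, 39 were above 0 FPKM in all 6 tumors, 20 in some of them and 14 were at 0 in every tumor. A mean of at least 0.5 FPKM, the level above which entries were tested, was reached by 44, and 29 stayed below it. Of those tested, 17 had a mean of at least 5 FPKM and 27 a lower one. H2B had 8 entries at 5 FPKM or more of its 21 and H2A had 4 of 17, while H3 had 1 of 13 and H4 had 2 of 15.

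**Figure D1:**
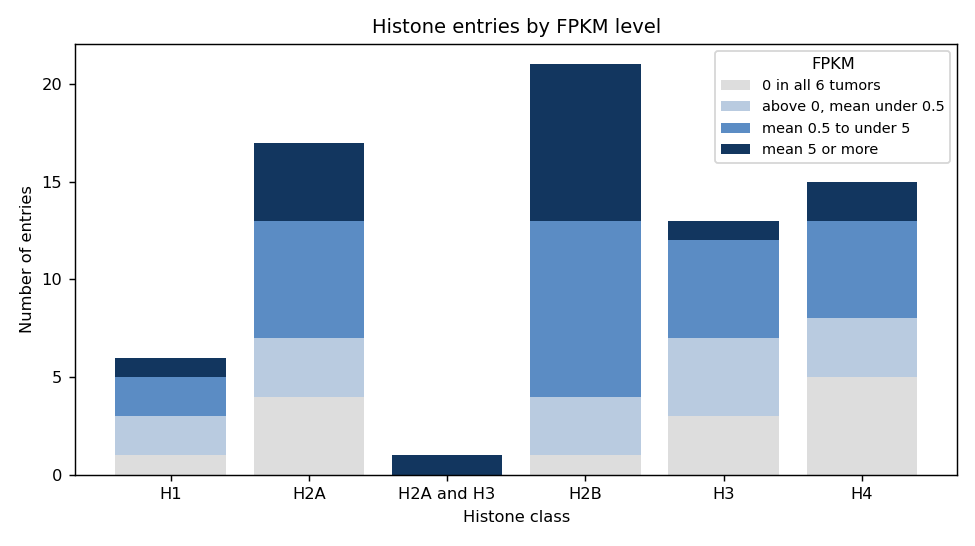
Number of clustered histone entries (y axis) in each histone class (x axis), stacked by FPKM level over the 6 tumors. H2B holds 8 of the 17 entries with a mean of 5 FPKM or more and only 1 of the 14 at 0 in every tumor, against 5 of H4.

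A few genes made up most of the signal. HIST1H2BK, HIST1H1C, HIST1H2AC, HIST1H2BD and HIST1H4H together held between 71.4% and 76.2% of the summed FPKM of all histone entries in each tumor. By class, H2B made up 49.9% of the sum in vehicle-treated and 50.3% in WCE-treated tumors, H1 23.6% and 22.8%, H2A 15.7% and 16.0%, and H4 7.94% in both. H3 gave 1.85% and 1.98%. The nucleosome holds H3 and H4 in equal amounts with H2A and H2B. Libraries of polyadenylated RNA hold little stem-loop mRNA, so these shares do not give the total mRNA of a class. The HIST1 cluster on chromosome 6 gave 94.6% and 93.3% of the sum with 55 entries, and the HIST2 cluster on chromosome 1 gave 3.86% and 4.83% with 14. Of 13 annotated genes whose transcripts read past the stem-loop to a hexamer, 8 had a mean of 5 FPKM or more, and their means ran from 0 to 109 FPKM. In all, 10 of the 19 that ran at least 100 bases past it reached this level. Of the 8 whose transcripts ran less than 100 bases past it, 3 reached this level, with means from 0 to 66.8 FPKM. The 66.8 FPKM was that of HIST1H2BD. Its matched transcript also held a hexamer in the last 50 bases, as did that of HIST2H2AA3. These 8 are therefore not all without an annotated polyadenylation signal. The highest entries, HIST1H2BK and HIST1H1C, had no match to the stem-loop.

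An entry listed at 0 need not be a silent gene. HIST2H2AA3, HIST2H3C and HIST2H4B, each listed at more than 1 locus, were at 0 at every locus, and they are near-identical copies, among which the authors' counting could have split or dropped reads. Over all 24000 entries, 44.1% of symbols listed at more than 1 locus were at 0 in all tumors, against 17.8% of symbols at 1 locus. Their true levels are uncertain. The remaining entries at 0 included HIST1H1A and a head-to-head pair known from the testis, HIST1H2AA and HIST1H2BA.

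Before the groups are compared, the tumors themselves have to be described. The table holds no read counts, but the steps between low values give relative depths, which were 64.8%, 75.4% and 100% in vehicle replicates 1 to 3 and 25.0%, 85.2% and 80.1% in WCE replicates 1 to 3. WCE replicate 1, the shallowest library, had 31 histone entries at 0, against 18 to 21 in the others. Vehicle replicate 3 and WCE replicate 1 had nearly the same values despite their different labels. Their median absolute log2 difference was 0.0276 over 1915 entries with a mean of at least 50 FPKM, against 0.0950 to 0.247 for the other pairs, and 0.0925 over the 17 high histone entries, against 0.105 to 0.790. Values are given for all 6 tumors, with those without this pair beside the counts, the lists and the leading genes. KRT8 and KRT18, keratins of PC-3 cells, were at 192 to 322 FPKM in every tumor, and the prostate secretory genes KLK3 and KLK2 were at 0.

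WCE and vehicle were compared in limma, on log2(FPKM + 1), across the 13287 entries with a mean of at least 0.5 FPKM, with Benjamini-Hochberg adjustment. Fold changes are on this scale, WCE minus vehicle, and understate the change of low genes. P-values of limma set the difference between groups against the spread between tumors within groups, moderated by that of the other entries. An exact two-sided permutation p cannot fall below 0.1 with 3 tumors against 3. No clustered histone entry passed the adjusted threshold of 0.05 (lowest adjusted p = 0.623 by limma), where 1 entry of the whole table did (0.00753%). At an unadjusted p under 0.05, limma called 1 of the 44 histone entries, HIST1H4D, against 7.10% of all entries. The count was 1 of 43 without vehicle replicate 1 (3.3% of all) and 1 of 44 without vehicle replicate 2 (2.84%). It was 3 of 43 without vehicle replicate 3 (13.3%) and 6 of 44 without WCE replicate 1 (15.3%). Of these 6, HIST1H2AK and HIST3H2BB were higher with WCE and the others lower. Without WCE replicate 2 the count was 4 of 44 (1.84%), and without WCE replicate 3 it was 2 of 42 (1.72%). The groups did not overlap, with WCE lower, in 2 entries, HIST1H2BC and HIST1H4D (6.40% of all entries), and with WCE higher in 0 (6.37%).

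As a description, 29 of the 44 log2 fold changes (65.9%) were below 0, against 51.4% of all entries, with a median of −0.16 against −0.0063. Among the 17 high entries 13 were below 0, with a median of −0.23, against −0.020 over the 9240 entries of the table at this level. Much of this lay with 1 tumor: without vehicle replicate 1 the median was −0.024, with 22 of 43 below 0, and without vehicle replicate 3 it was −0.27. Without vehicle replicate 3 and WCE replicate 1 the median was −0.26, with 30 of 45 below 0, and limma called 2 entries at an unadjusted p under 0.05 (18.6% of all). The 17 high entries had a median of −0.33 there, from −0.72 for HIST1H4H to 0.50 for HIST1H4E, with 12 below 0, and the lowest unadjusted p among them by limma was 0.0617. In that set of 4 tumors WCE was lower without overlap in 10 entries (27.8% of all) and higher in 4 (25.7%). The high entries among them were HIST1H2BK, HIST1H1C, HIST1H2AC, HIST1H4H and HIST1H2BC, lower, and HIST2H2BE, higher. In bulk tumors, fewer cells of a type and less RNA per cell cannot be told apart.

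**Figure D2:**
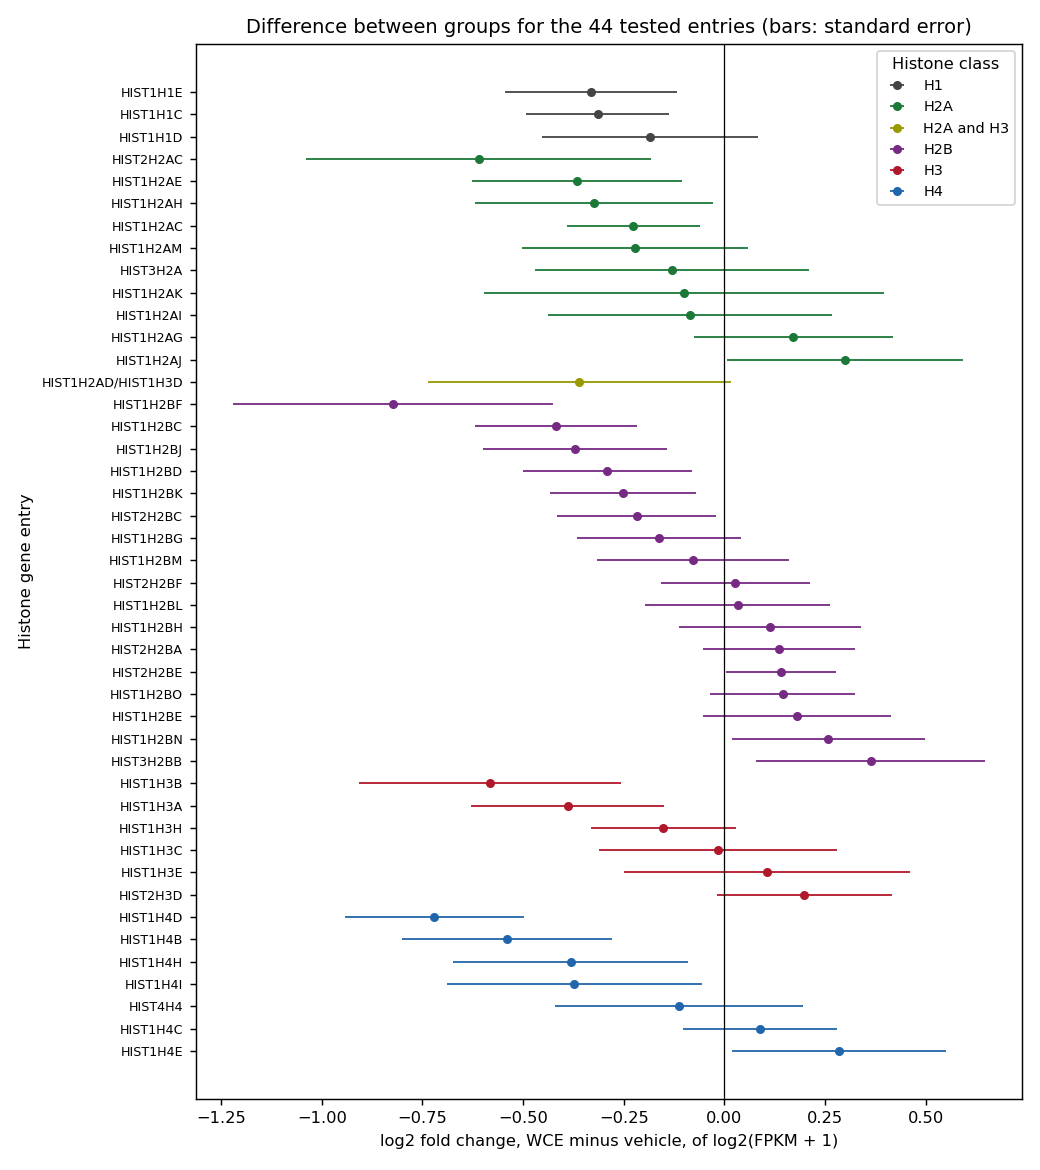
Log2 fold change (x axis, WCE minus vehicle, of log2(FPKM + 1)) of each of the 44 tested histone entries (y axis), grouped and colored by class, with bars of 1 standard error. Of the entries, 29 lie below 0 and 15 above, from −0.82 for HIST1H2BF to 0.36 for HIST3H2BB.

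The sum over all 73 entries shows the same tumors at the ends. It was 1371, 990.1 and 924 FPKM in vehicle replicates 1 to 3 and 946, 779 and 1018 FPKM in WCE replicates 1 to 3. Vehicle replicate 1 was above all other tumors and WCE replicate 2 below them, and the groups overlapped. The means were 1095 ± 241 FPKM with vehicle and 915 ± 122 FPKM with WCE (SD over 3 tumors), which gave a log2 ratio of −0.26. The ratio was −0.066 without vehicle replicate 1, −0.16 without WCE replicate 2 and −0.39 without both vehicle replicate 3 and WCE replicate 1. Of the 17 high entries, vehicle replicate 1 was highest in 12 (33.1% of all entries at this level) and WCE replicate 3 in 5, and WCE replicate 2 was lowest in 10 (16.7% of all). Set against the other 5 tumors, the median log2 difference over the high histone entries was 0.49 in vehicle replicate 1, where it was 0.049 over all entries at this level, and −0.36 in WCE replicate 2, where it was 0.0031 over all.

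**Figure D3:**
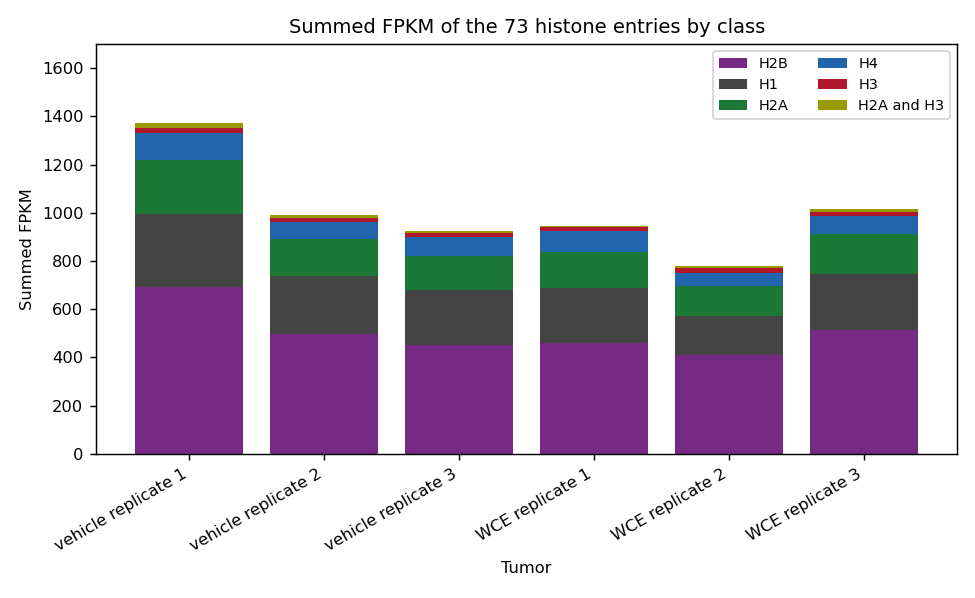
Summed FPKM of the 73 histone entries (y axis) in each tumor (x axis), stacked by histone class. Vehicle replicate 1 reaches 1371 FPKM and WCE replicate 2 reaches 779 FPKM, with the other 4 tumors between 924 and 1018 FPKM.

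Markers of other cells were set beside these sums. The 5 fibroblast markers summed to 12.4 FPKM in WCE replicate 2, the tumor with the lowest histone sum, and to 39.0 to 55.8 FPKM in the other 5 tumors. COL1A1 and the entry of COL3A1 gave nearly all of it, and DCN and PDGFRB were at or below 0.161 FPKM in every tumor. The 5 endothelial markers summed to 1.20 FPKM in vehicle replicate 1 and 3.21 to 7.60 FPKM elsewhere, with CDH5, TEK and VWF at or below 0.0893 FPKM. KDR, the receptor for VEGF, had a log2 fold change of 1.14 (limma, unadjusted p = 0.0345 with an adjusted p = 0.623). It was 0.60 without WCE replicate 3, and KDR was called neither there nor with any 1 vehicle tumor left out. The 5 myeloid and leukocyte markers summed to 25.6 to 44.4 FPKM, of which CD68 gave 25.3 to 43.9, and PTPRC stayed at or below 0.666 FPKM. TMPRSS2, an androgen-regulated protease, was at 9.94 FPKM in vehicle replicate 1 and at 22.0 to 26.1 FPKM elsewhere. EPCAM, an epithelial adhesion molecule, was at 305, 249.9 and 185 FPKM with vehicle and 180.0, 138 and 123 FPKM with WCE (log2 fold change −0.73, limma, unadjusted p = 0.00889 with an adjusted p = 0.623). Without the nearly identical pair it was −1.08. The part of these differences in the histone values was not tested.

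H1, the linker histone, binds DNA where it enters and leaves the nucleosome. It was seen almost wholly as HIST1H1C (chromosome 6, 26055968 to 26056699 as listed), at 300.0, 240.2 and 224 FPKM with vehicle and 226, 159 and 232 FPKM with WCE. Both groups covered the range from 224 to 232 FPKM, so they overlapped. The log2 fold change was −0.31 (SE 0.18, limma, unadjusted p = 0.117), −0.14 without WCE replicate 2, −0.19 without vehicle replicate 1 and −0.48 without the nearly identical pair. HIST1H1D and HIST1H1E had means of 1.55 and 1.20 FPKM, and HIST1H1B and HIST1H1T were below 0.5. All 3 tested H1 entries had a log2 fold change below 0, with a median of −0.31.

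H2A pairs with H2B on the outside of the nucleosome. HIST1H2AC (chromosome 6, 26124373 to 26124918) was at 148, 106 and 99.6 FPKM with vehicle and 106, 87.7 and 105 FPKM with WCE. Its groups overlapped around 106 FPKM, with vehicle replicate 1 alone above. The log2 fold change was −0.23 (SE 0.17, unadjusted p = 0.211 by limma), −0.051 without vehicle replicate 1, −0.14 without WCE replicate 2 and −0.39 without the nearly identical pair. HIST1H2AE was at 37.5, 19.2 and 22.9 FPKM with vehicle and 24.1, 14.8 and 20.9 FPKM with WCE, again with vehicle replicate 1 highest and WCE replicate 2 lowest, and its log2 fold change was −0.37. HIST3H2A, the highest entry of the HIST3 cluster, was at 12.5, 10.3 and 6.83 against 7.35, 5.71 and 15.4 FPKM, so that WCE tumors held both its lowest and its highest value (log2 fold change −0.13). HIST1H2AI had a mean of 5.18 FPKM and a log2 fold change of −0.09. Of the 10 tested H2A entries, 8 were below 0 and 2 above, with a median of −0.18. A joined entry of HIST1H2AD and HIST1H3D, an H2A and an H3 gene the table does not separate, was at 17.6, 9.98 and 7.59 against 4.83, 8.83 and 13.5 FPKM (log2 fold change −0.36, SE 0.38).

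H2B was the class with the highest summed FPKM in these polyadenylated libraries. HIST1H2BK was the highest of all clustered histone entries, at 393, 291 and 247 FPKM with vehicle and 254, 227 and 291 FPKM with WCE. Apart from vehicle replicate 1, the tumors of both groups lay in the same range. The log2 fold change was −0.25 (SE 0.18, unadjusted p = 0.206 by limma), −0.068 without vehicle replicate 1, −0.17 without WCE replicate 2, −0.40 without vehicle replicate 3 and −0.40 without the nearly identical pair. Its listed locus, chromosome 6 from 27106072 to 27114637, is far longer than a histone coding sequence and is shared with the entry of HIST1H4I, which had a mean of 0.692 FPKM.

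HIST1H2BD was at 101, 61.0 and 60.9 FPKM with vehicle and 63.7, 50.1 and 63.8 FPKM with WCE. Vehicle replicate 1 again lay apart from the rest, and the log2 fold change was −0.29 (SE 0.21), −0.050 without vehicle replicate 1, −0.18 without WCE replicate 2 and −0.47 without the nearly identical pair. HIST1H2BC (chromosome 6, 26123695 to 26124132) was the high entry with no overlap between the groups, at 55.1, 45.3 and 48.3 FPKM with vehicle and 44.6, 26.1 and 42.4 FPKM with WCE. The gap between the groups, from 44.6 to 45.3 FPKM, was small, and the exact permutation test gave a two-sided p of 0.1. In limma the log2 fold change was −0.42 (SE 0.20, unadjusted p = 0.0725 with an adjusted p = 0.623). It was −0.18 without WCE replicate 2, −0.56 without WCE replicate 1 (limma, unadjusted p = 0.0313) and −0.57 without the nearly identical pair (unadjusted p = 0.0621).

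HIST1H2BG was at 41.9 FPKM in vehicle replicate 1 and between 24.0 and 28.6 FPKM in the other 5 tumors, with a log2 fold change of −0.16. HIST1H2BJ was at 22.1, 14.8 and 16.9 against 14.1, 9.57 and 17.8 FPKM, with overlapping groups and a log2 fold change of −0.37. HIST2H2BE, the highest entry of the HIST2 cluster, had the other direction, at 26.6, 23.3 and 21.9 FPKM with vehicle and 22.3, 27.0 and 30.6 FPKM with WCE. Its log2 fold change was 0.14 (SE 0.14), and its groups overlapped, with 0.038 without WCE replicate 3 and 0.20 without the nearly identical pair. HIST2H2BF, whose higher entry shares its locus with FCGR1A, had a mean of 9.44 FPKM and a log2 fold change of 0.03, and HIST1H2BH had a mean of 5.96 FPKM and a log2 fold change of 0.11. Of the 17 tested H2B entries, 8 were below 0 and 9 above, with a median of 0.03.

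**Figure D4:**
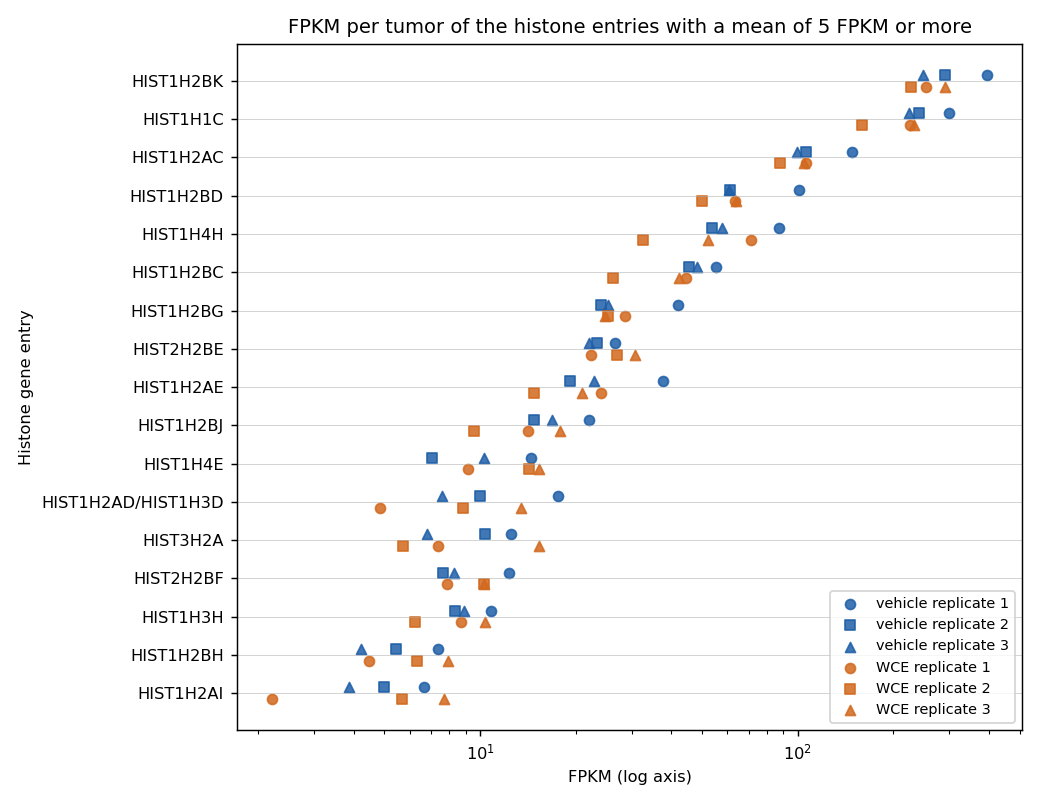
FPKM (x axis, log scale) of the 17 clustered histone entries with a mean of at least 5 FPKM (y axis), with 1 point for each tumor, vehicle in blue and WCE in orange. Vehicle replicate 1 is the highest point in 12 rows and WCE replicate 2 the lowest in 10, and the groups do not overlap only for HIST1H2BC.

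H3 and H4 form the center of the nucleosome. HIST1H3H was the one separate H3 entry above 5 FPKM, at 10.8, 8.35 and 8.89 FPKM with vehicle and 8.74, 6.22 and 10.3 FPKM with WCE, with overlapping groups and a log2 fold change of −0.15. Of the 6 tested H3 entries, 4 were below 0 and 2 above, with a median of −0.08. HIST1H4H (chromosome 6, 26285354 to 26285727), the leading H4 entry, was at 87.2, 53.9 and 57.9 FPKM with vehicle and 71.3, 32.6 and 52.1 FPKM with WCE. WCE replicate 1 lay above 2 of the vehicle tumors, and the log2 fold change was −0.38 (SE 0.29, unadjusted p = 0.229 by limma). The groups overlapped only through WCE replicate 1. The log2 fold change was −0.64 without WCE replicate 1 (limma, unadjusted p = 0.0469). It was −0.087 without WCE replicate 2, and leaving out vehicle replicate 1 gave −0.17. Without the nearly identical pair it was −0.72 (unadjusted p = 0.0617), with no overlap. HIST1H4E was at 14.5, 7.06 and 10.3 against 9.18, 14.3 and 15.3 FPKM, for which the log2 fold change was 0.28 (SE 0.27). HIST4H4, the only gene of its cluster, had a mean of 4.29 FPKM and a log2 fold change of −0.11.

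HIST1H4D (chromosome 6, 26188938 to 26189304) was the one entry with an unadjusted p under 0.05. It was at 3.37, 2.08 and 2.73 FPKM with vehicle and 1.22, 0.723 and 1.94 FPKM with WCE, all of which lay below all vehicle tumors. The log2 fold change was −0.72 (SE 0.22, limma, unadjusted p = 0.0127 with an adjusted p = 0.623), and the exact permutation test gave a two-sided p of 0.1. Vehicle replicate 3 and WCE replicate 1 gave 2.73 and 1.22 FPKM, but their near match was measured on higher entries. Other low entries differed between them too, such as HIST1H2BF (2.61 and 0.873 FPKM) and HIST1H2BO (2.60 and 4.47 FPKM). The relative depth of WCE replicate 1 was 25.0%. Without both libraries the log2 fold change was −0.71 with an unadjusted p of 0.0698 by limma. With array weights it was −0.42 with an unadjusted p of 0.109 by limma. Without moderation of the spread the unadjusted p was 0.0538 with all 6 tumors. With any 1 tumor left out, the unadjusted p by limma ran from 0.00366 to 0.0451, with an adjusted p from 0.276 to 0.969. With the replicate number as a block the unadjusted p was 0.00863 by limma. H4 genes code for the same or nearly the same protein and are alike in sequence, so reads can be shared between them. Of the 7 tested H4 entries, 5 were below 0 and 2 above, with a median of −0.37.

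Head-to-head H2A and H2B genes had unequal FPKM in some pairs and similar FPKM in others. The table lists 11 such pairs, with 239 to 346 bases between the listed loci. The H2B gene had more FPKM in all 6 tumors in 5 pairs and the H2A gene in 2, and 1 pair was at 0 throughout. HIST1H2BK had a mean of 284 FPKM and its partner HIST1H2AH 0.522, HIST2H2BE had 25.3 and HIST2H2AC 1.48, and HIST1H2BJ had 15.9 and HIST1H2AG 3.33. In the other direction HIST1H2AC had a mean of 109 FPKM and HIST1H2BC 43.6, and HIST3H2A had 9.68 and HIST3H2BB 2.79. In 3 pairs the means lay within 2-fold of each other, HIST1H2AE and HIST1H2BG at 23.2 and 28.3 FPKM, HIST1H2AM and HIST1H2BO at 3.00 and 3.55, and HIST1H2AK and HIST1H2BN at 1.78 and 2.97. HIST1H2AI and HIST1H2BL stood at 5.18 and 2.47 FPKM, and HIST1H2AJ and HIST1H2BM at 0.770 and 1.73. Of the 10 pairs with both partners tested, 3 had log2 fold changes of the same sign.

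**Figure D5:**
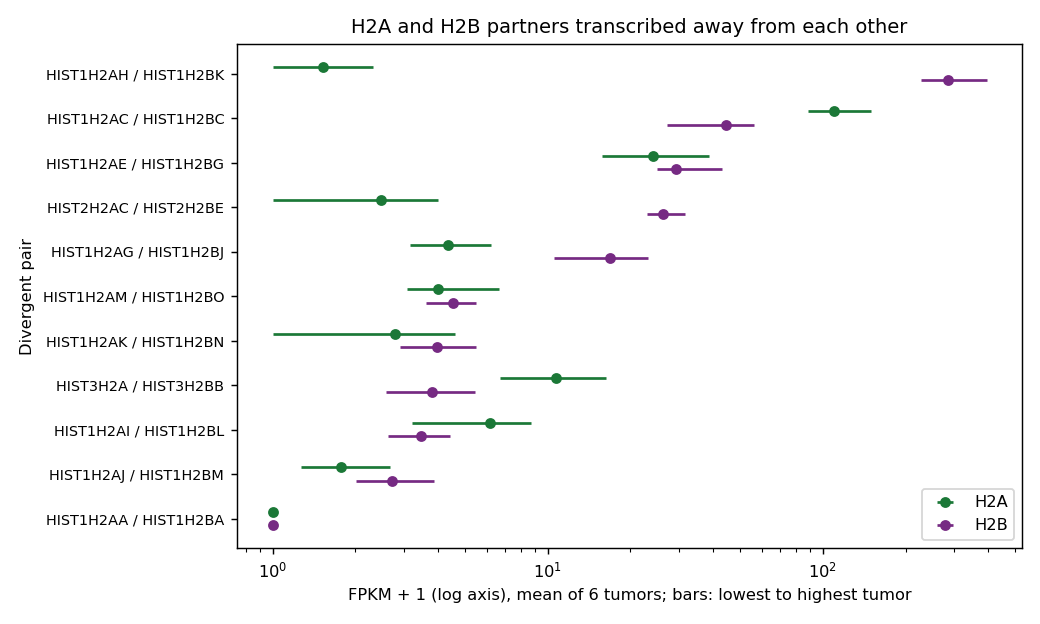
Mean FPKM + 1 over the 6 tumors (x axis, log scale) of the H2A and the H2B gene of each of 11 head-to-head pairs (y axis), with bars from the lowest to the highest tumor. HIST1H2BK stands at 284 FPKM and its partner HIST1H2AH at 0.522, while HIST1H2AC at 109 FPKM lies above HIST1H2BC at 43.6.

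A set of 8 clustered genes known to give polyadenylated forms (HIST1H1C, HIST1H2AC, HIST1H2BC, HIST1H2BD, HIST1H2BJ, HIST1H2BK, HIST1H4H and HIST2H2BE) was described on its own. All were tested, 7 had a log2 fold change below 0 and 1 above, with a median of −0.30, and limma called 0 of them at an unadjusted p under 0.05. The median was −0.12 without vehicle replicate 1, −0.14 without WCE replicate 2 and −0.45 without the nearly identical pair. Their summed level was 1134, 835 and 776 FPKM with vehicle and 802, 619 and 834 FPKM with WCE, so the groups overlapped.

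The genes that process and transcribe histone mRNA were set beside the histone entries. Of the 13 genes of 3′ end processing, limma called 0 at an unadjusted p under 0.05, and the median log2 fold change was −0.04. Without the nearly identical pair limma called 2 of them higher, LSM10 and SYMPK, where 18.6% of all entries were called, with a median of −0.03. SLBP, which binds the stem-loop, was at 24.4, 27.6 and 24.4 FPKM with vehicle and 24.8, 23.0 and 21.6 FPKM with WCE (log2 fold change −0.13, unadjusted p = 0.223). The groups of SLBP overlapped. NCBP2 and SRRT, of the cap-binding complex and its partner, were the highest of the list, with log2 fold changes of −0.14 and 0.11.

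Of the 7 genes of histone gene transcription, limma called 0 at an unadjusted p under 0.05, and the median log2 fold change was 0.08. Without the nearly identical pair limma called 0 as well, with a median of 0.15. NPAT, the coactivator of clustered histone genes at the histone locus body, was at 6.52, 7.45 and 7.41 FPKM with vehicle and 7.29, 7.83 and 7.22 FPKM with WCE, with a log2 fold change of 0.06. CDK2, the kinase that acts on NPAT with cyclin E, and E2F1 had log2 fold changes of 0.08 and 0.11.

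Of 14 genes of S phase and proliferation, 1 was lower and 0 were higher at an unadjusted p under 0.05 by limma, and the median was −0.09. The median was 0.07 without vehicle replicate 1 and −0.12 without the nearly identical pair. In the latter set PCNA, CCNA2 and RRM2 were called lower, where 18.6% of all entries were called. PCNA was not called without vehicle replicate 1 or 2 or WCE replicate 2 or 3. PCNA, the sliding clamp of DNA polymerases, was at 158, 176 and 132 FPKM with vehicle and 134, 123 and 117 FPKM with WCE (log2 fold change −0.31, limma, unadjusted p = 0.0421 with an adjusted p = 0.623). WCE replicate 1 lay just above vehicle replicate 3, so the groups overlapped. MKI67, a marker of cycling cells, was at 17.1, 9.32 and 11.2 against 11.3, 13.7 and 13.4 FPKM, with a log2 fold change of 0.06. It was highest in vehicle replicate 1, as the histone sum was. Its lowest value was in vehicle replicate 2, while the histone sum was lowest in WCE replicate 2. The 14 genes together summed to 561, 493 and 447 FPKM with vehicle and 451, 470 and 459 FPKM with WCE. That sum was highest in vehicle replicate 1 and lowest in vehicle replicate 3. MCM7, a subunit of the replicative helicase, had a log2 fold change of 0.16.

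Of 17 tested entries of histone chaperones, 1 was lower and 0 were higher at an unadjusted p under 0.05 by limma, with a median of 0.0054. Without the nearly identical pair ASF1B was called lower and UBN1 higher, where 18.6% of all entries were called, with a median of −0.02. ASF1B, which hands H3 and H4 to the factors that place them on DNA, was at 43.8, 41.6 and 35.0 FPKM with vehicle and 33.7, 32.5 and 30.8 FPKM with WCE, without overlap (log2 fold change −0.30, limma, unadjusted p = 0.0280 with an adjusted p = 0.623). ASF1B was not called without vehicle replicate 1 or 2 or WCE replicate 2 or 3. The highest chaperones, SSRP1 and NAP1L1, had log2 fold changes of −0.06 and 0.03.

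Variant histones are mostly made throughout the cell cycle from ordinary polyadenylated mRNAs, although H2AFX also matched the histone stem-loop in its annotated transcripts. The 12 variant histone genes summed to 1922 to 2299 FPKM per tumor, against 779 to 1371 FPKM for the 73 clustered entries. Of the 11 tested, 10 had a log2 fold change below 0 and 1 above, with a median of −0.20, and limma called 0 at an unadjusted p under 0.05. The median was −0.11 without vehicle replicate 1 and −0.31 without vehicle replicate 3, where 5 were called lower (13.3% of all entries called). Without the nearly identical pair it was −0.29, and limma called H2AFX and H2AFY lower (18.6% of all entries called). H3F3B, which codes for H3.3, had a log2 fold change of −0.07. H2AFZ was at 585, 467 and 422 FPKM with vehicle and 424, 426 and 386 FPKM with WCE (log2 fold change −0.24, unadjusted p = 0.122 and −0.11 without vehicle replicate 1), with overlapping groups.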

How the data were processed

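RNA-seq of 3 vehicle-treated and 3 WCE-treated PC-3 tumors was analysed, with columns matched to tumors by the sample labels. The authors deposited FPKM values per gene entry laid out as Cufflinks does. The submitters' processing notes name TopHat2 2.0.13, Cufflinks, hg19 and mm10 without their roles, and the table names no build. Loci are given as listed, counted from 1. Absolute depth is unknown.

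Entries averaging at least 0.5 FPKM were compared as log2(FPKM + 1) in R 4.3.3 by limma 3.58.1 (mean-variance trend on, two-sided) and Benjamini-Hochberg adjustment over all 13287 entries. Relative depth was read from steps between low values. Both steps were tested on simulated data. Other values came from Python 3.11.15 with pandas 2.3.3 and numpy 2.4.6, and figures from matplotlib 3.10.9. Named members have a mean of at least 5 FPKM, lead a class or cluster, or have an unadjusted p under 0.05. Of the other lists, the 2 highest genes, those under 0.05, SLBP, NPAT, MKI67 and PCNA are named. Partners of head-to-head pairs, genes called with tumors left out, other markers and other histone genes were named after their values were seen. Members and lists were chosen with earlier results of these data known. Alternatives were the pseudocount, filter, scaling, moderation, weights, a replicate block and tumors left out. Leaving out vehicle replicate 3 and WCE replicate 1 for the counts without overlap, and all left-out fits for the other lists, were added later. A marker of the lists is not reported here.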

Additional observations from a re-analysis of the deposited data

How the results depend on the processing

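With 3 tumors a group and unknown absolute depth, small differences and low entries are poorly resolved, most of all in WCE replicate 1. The count of histone entries with an adjusted p under 0.05 was 0 in every alternative run. The median log2 fold change stayed below 0 in each, from −0.27 without vehicle replicate 3 to −0.024 without vehicle replicate 1, and the log2 ratio of the summed FPKM ran from −0.39 without vehicle replicate 3 and WCE replicate 1 to −0.066 without vehicle replicate 1. The count at an unadjusted p under 0.05 was 1 as designed and 2 after quantile normalization (7.19% of all entries). It was 0 in the unmoderated test (4.46% of all) and 4 with array weights (24.1% of all). The weights ran from 0.408 in vehicle replicate 1 to 4.00 in WCE replicate 3. Without vehicle replicate 3 and WCE replicate 1 the count was 2 (18.6% of all). With 1 tumor left out it was 1 to 6, where 1.72% to 15.3% of all entries were called. With array weights, HIST1H4D was not among the 4, which were HIST1H3A, HIST1H4E, HIST2H2BE and HIST3H2BB, and log2 fold changes turned to 0.30 for HIST3H2A, 0.38 for HIST1H2AI, 0.047 for HIST1H3H and 0.17 for the joined entry of HIST1H2AD and HIST1H3D. HIST1H2AI was at 0.17 without vehicle replicate 3 and WCE replicate 1. With 1 tumor left out, directions changed for HIST3H2A (−0.51 to 0.14), HIST1H2AI (−0.39 to 0.33), HIST1H2BG (−0.30 to 0.085), HIST2H2BF (−0.095 to 0.22), HIST4H4 (−0.44 to 0.12), HIST1H2BH (−0.051 to 0.30) and HIST1H3H (−0.30 to 0.028). The causes were not tested.

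With the replicate number as a block, limma called 5 entries at an unadjusted p under 0.05 (HIST1H2AE, HIST1H2BC, HIST1H4B, HIST1H4D and HIST1H4H), where 7.89% of all entries were called, and 0 after adjustment. The labels do not say that equal numbers pair tumors, and the deviations of same-numbered tumors correlated at −0.241, 0.16 and −0.0931 over entries.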
